A study of Apis cerana with 9 samples.

Results

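Honey bees kill bacteria in the body cavity with small secreted peptides, among them hymenoptaecin, apidaecin and abaecin. Their genes are switched on mainly in the fat body, the insect organ closest in role to a liver, and in blood cells, when the Toll or Imd pathway senses microbial cell wall and releases an NF-kappa-B factor into the nucleus. Hymenoptaecin is a glycine-rich peptide active against many bacteria, while apidaecin and abaecin are proline-rich and act chiefly on Gram-negative cells. The 4 genes described here are all rows of the deposited table annotated as one of these peptides, out of 12757 genes listed. They are LOC107993492 (hymenoptaecin), LOC108001747 (a second gene described as hymenoptaecin), LOC108000468 (apidaecins type 22) and LOC108002218 (abaecin-like). They were picked because their levels were much lower in rapeseed than in pear libraries, so values of that contrast are a description here and carry no test.

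Gene expression was read by RNA-seq in the proboscis of *A. cerana*, the tongue with which bees drink nectar, in 9 libraries. By the labels, 3 were from Non-pollen-carrying bees, 3 from Pear pollen-carrying bees and 3 from Rapeseed pollen-carrying bees, called non-pollen, pear and rapeseed below. No treatment, age, genotype or colony is given, and no label tells if replicate libraries were made from different bees or from a shared pool. The p-values therefore reflect the spread between samples only, and that spread may be technical. Levels are given as CPM (counts divided by a library size adjusted by TMM scaling) for comparing libraries, and as the authors' FPKM, which also divides by gene length, for comparing genes.

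Total counts ran from 43034759 to 64306245 per library, and 9259 genes, all 4 peptide genes included, passed a minimum FPKM of 1 in at least 3 libraries. Summed markers of head gland, of eye and neuron, and of muscle moved with the groups. The 37 genes of the head gland list (royal jelly proteins and gland enzymes) took a mean of 37.3% of all counts in non-pollen libraries, 1.05% in pear and 0.788% in rapeseed, and none was at 0 in every library. Summed CPM of the 21 eye and neuron genes was 1430 to 1470 in non-pollen, 324 to 340 in pear and 357 to 362 in rapeseed libraries. Summed CPM of 24 muscle genes was 46500 to 49000, 67800 to 72900 and 69200 to 69500 in the same order. The 7 gustatory receptor genes, markers of the taste organs on the proboscis, were low in every group, at 22.7 to 29.6 CPM in sum. The part of this tissue difference in the changes against non-pollen bees was not tested.

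Hymenoptaecin, LOC107993492, lies on the plus strand of scaffold NW_016018122.1 from 2169283 to 2170652. It was measured at 252, 244 and 232 CPM in non-pollen libraries, 111, 120 and 122 in pear libraries, and 17.3, 18.8 and 16.6 in rapeseed libraries. The groups formed 3 separate steps, with the rapeseed libraries far below the rest. Hymenoptaecin fell 2.06-fold from non-pollen to pear bees (log2 fold change -1.04, SE 0.048, edgeR quasi-likelihood adjusted p = 8.1e-14) and 13.8-fold from non-pollen to rapeseed bees (-3.79, SE 0.0555, adjusted p = 1.39e-22). Between rapeseed and pear the mean ratio of CPM was 0.149, the eighth lowest log2 fold change (-2.74) of all genes tested. By FPKM, hymenoptaecin stood at rank 172 of the genes tested in non-pollen bees, 410 in pear bees and 2715 in rapeseed bees.

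The table places hymenoptaecin inside the span of LOC107993491, lysophospholipid acyltransferase 2, a membrane lipid enzyme read from the opposite strand (2160823 to 2195866). Whether counting used strand is not given in the sources used here, so reads of the 2 genes may not be separate. LOC107993491 had a mean of 74.1 CPM ± 4.55 (SD, n = 3) in non-pollen, 55.5 ± 3 in pear and 57.8 ± 2.23 in rapeseed libraries. Its mean FPKM was 16 ± 0.851 in non-pollen, 17.6 ± 0.69 in pear and 17.7 ± 0.645 in rapeseed libraries, so that the non-pollen mean was the highest by CPM and the lowest by FPKM. Pear and rapeseed libraries overlapped (log2 fold change 0.06, 95% interval -0.05 to 0.17, adjusted p = 0.586). The next gene by position, LOC107993493 (Tim8, a chaperone of mitochondrial import), lies inside the same span, from 2186691 to 2187401. Its log2 fold change of -0.38 between rapeseed and pear did not pass (SE 0.244, adjusted p = 0.373). It rests on few counts, 80 to 135 per library in rapeseed bees.

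The second hymenoptaecin gene, LOC108001747, lies on the minus strand of NW_016019619.1 from 673082 to 673614, a scaffold with 6 listed genes. Its one transcript carries the RefSeq prefix for a non-coding record, although its description names the peptide. It was measured at 20.9, 22.8 and 20.8 CPM in non-pollen, 7.47, 8.25 and 9.24 in pear, and 1.18, 1.09 and 1.29 in rapeseed libraries. The order of the groups was that of the first gene, again without overlap, and at a far lower CPM. The second gene fell 2.58-fold in pear bees (log2 fold change -1.37, SE 0.115, adjusted p = 1.58e-09) and 18.1-fold in rapeseed bees (-4.18, SE 0.138, adjusted p = 2.5e-16), both against non-pollen bees. The rapeseed values rest on 59 to 73 counts per library. Between rapeseed and pear its log2 fold change was -2.81, the fifth lowest of all genes tested.

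Both hymenoptaecin genes can share reads if their sequences are close, and the treatment of reads that match more than one gene is not given in the sources used here. The second gene held 8.2% of the counts of the pair in non-pollen bees (exact binomial 95% interval 7.92 to 8.5), 6.6% in pear bees (6.26 to 6.96) and 6.32% in rapeseed bees (5.5 to 7.22), intervals that cover counting error only. The share was lower in both carrier groups than in non-pollen bees, and the intervals of pear and rapeseed bees overlapped. The neighbour of LOC108001747, LOC108001746 (described as serine-rich adhesin for platelets), was at 37.4 CPM ± 4.65 (SD, n = 3) in non-pollen, 77.6 ± 5.69 in pear and 81.9 ± 0.809 in rapeseed libraries. Its non-pollen libraries were the lowest, unlike those of the hymenoptaecin gene beside it, and between rapeseed and pear its log2 fold change was 0.08 (SE 0.0656, adjusted p = 0.509).

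Apidaecin, LOC108000468, lies on the plus strand of NW_016019441.1 from 3617246 to 3618259. It was measured at 133, 122 and 121 CPM in non-pollen, 284, 290 and 302 in pear, and 69, 65.5 and 65.6 in rapeseed libraries. By CPM its order differed from that of the other 3 genes. The pear libraries were highest and the non-pollen libraries lay in the middle, without overlap. Apidaecin rose 2.33-fold from non-pollen to pear bees (log2 fold change 1.22, SE 0.043, adjusted p = 8.28e-16) and fell 1.88-fold from non-pollen to rapeseed bees (-0.91, SE 0.044, adjusted p = 1.47e-13). Rapeseed bees held 22.8% of the pear level (log2 fold change -2.13). In FPKM it was at 642 ± 7.35 (SD, n = 3) in pear bees, rank 83 of the genes tested, against 188 ± 6.78 in non-pollen and 142 ± 4.46 in rapeseed bees. Its neighbour LOC108000464 (AAR2 homolog, a splicing factor of the U5 particle) had a log2 fold change of -0.01 between rapeseed and pear (SE 0.111, adjusted p = 0.976).

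Abaecin-like, LOC108002218, lies on the minus strand of NW_016019664.1 from 755988 to 756893. It was measured at 22.1, 20.8 and 21.7 CPM in non-pollen, 15, 15.9 and 15.7 in pear, and 5.16, 6.64 and 5.09 in rapeseed libraries. The 3 groups did not overlap, and rapeseed replicate 2 stood above the other rapeseed libraries. Abaecin-like fell 3.83-fold from non-pollen to rapeseed bees (log2 fold change -1.94, SE 0.11, adjusted p = 2.25e-12). Against non-pollen bees the pear value was -0.47 (SE 0.103, adjusted p = 0.000618), but the direction depended on the scaling. It was 0.06 (adjusted p = 0.574) with library totals only and 0.07 (adjusted p = 0.401) with limma on log2 of FPKM plus 1. On those scales the median of all genes moved to 0.53 and 0.47, so abaecin-like lay below the median gene on each of the 3 scales. The authors' FPKM was 35.7 ± 0.651 (SD, n = 3) in non-pollen, 37.7 ± 0.819 in pear and 13.2 ± 2.03 in rapeseed bees. Between rapeseed and pear the log2 fold change was -1.47, and -1.6 without rapeseed replicate 2. The neighbour LOC108002212 (lachesin-like, a cell surface protein of the immunoglobulin family) was at 0.11 in that contrast (SE 0.178, adjusted p = 0.763).

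**Figure D1:**
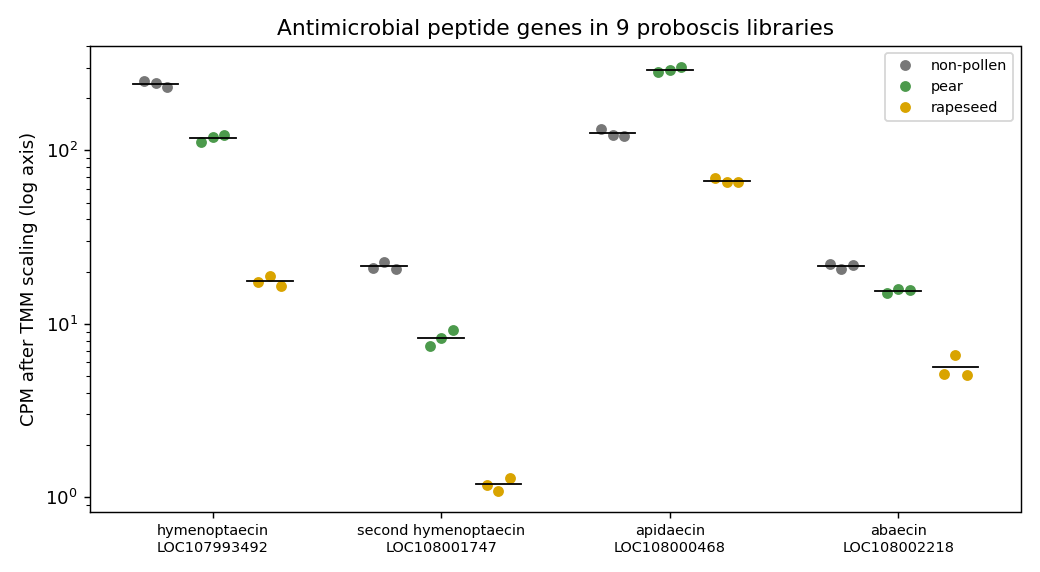
CPM after TMM scaling (log axis) of the 4 peptide genes in 3 non-pollen (grey), 3 pear (green) and 3 rapeseed (yellow) libraries, with 1 point per library and a bar at the group mean. Rapeseed libraries are lowest for each gene, and apidaecin alone is highest in pear libraries (284 to 302 CPM).

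Against non-pollen bees, 3 of the 4 genes were called lower in pear bees, where 27.2% of all genes tested were, and 1 was called higher, where 28.5% were. All 4 were called lower in rapeseed bees, where 30.0% of all genes were. The CPM of the groups did not overlap for any of the 4 genes in either comparison. That held for 29.0% of all genes on the lower side and 30.4% on the higher side in pear bees, and for 32.3% on the lower side in rapeseed bees. Both hymenoptaecin genes and apidaecin kept their direction and their call against non-pollen bees under all 17 alternatives run, and abaecin-like did so in rapeseed bees. With library totals or FPKM the falls were smaller and the apidaecin rise larger. The log2 fold change of hymenoptaecin ran from -1.08 to -0.49 in pear bees and from -3.84 to -3.24 in rapeseed bees. That of the second hymenoptaecin gene ran from -1.45 to -0.79 in pear bees and from -4.24 to -3.22 in rapeseed bees, with the smallest falls under limma on FPKM plus 1. That of apidaecin ran from 1.19 to 1.76 in pear bees and from -0.93 to -0.4 in rapeseed bees. These tests share pear and rapeseed libraries with the contrast that picked the genes.

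In the picking contrast, the rapeseed and pear libraries did not overlap for any of the 4 genes, as for 14.8% of all genes in that direction. A log2 fold change at or under -2, found for both hymenoptaecin genes and apidaecin, was found for 11 genes (0.119%) in all. After TMM scaling, the steps non-pollen above pear above rapeseed, without overlap, held for both hymenoptaecin genes, abaecin-like and 358 genes in all (3.87%). The steps of apidaecin, pear above non-pollen above rapeseed, held on the same scale for 12 genes in all (0.13%). By FPKM, the pear libraries of abaecin-like (37.2 to 38.6) lay above its non-pollen libraries (35 to 36.3).

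Ratios between genes of the same library do not depend on the scaling. Per length, hymenoptaecin exceeded apidaecin in non-pollen libraries, with a ratio of FPKM of 1.32 ± 0.0416 (SD, n = 3). The same ratio was 0.274 ± 0.0085 in pear and 0.18 ± 0.0142 in rapeseed libraries, so apidaecin was the more abundant in every pollen carrier library. Hymenoptaecin to abaecin-like was 6.97 ± 0.334 in non-pollen, 4.68 ± 0.115 in pear and 1.95 ± 0.168 in rapeseed libraries. Apidaecin to abaecin-like was 5.28 ± 0.211, 17 ± 0.503 and 11 ± 1.74 in the same order. The ratio of the first to the second hymenoptaecin gene moved least, at 8.19 ± 0.513, 10.3 ± 0.683 and 10.9 ± 1.7. For 12 comparisons of a ratio with non-pollen bees (6 pairs of genes, pear and rapeseed) the two-sided exact permutation p was 0.1 in each (0.1 adjusted over the 12), the smallest that 3 libraries against 3 allow. The 6 ratios come from only 4 genes, and ratios of other genes were not computed.

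**Figure D2:**
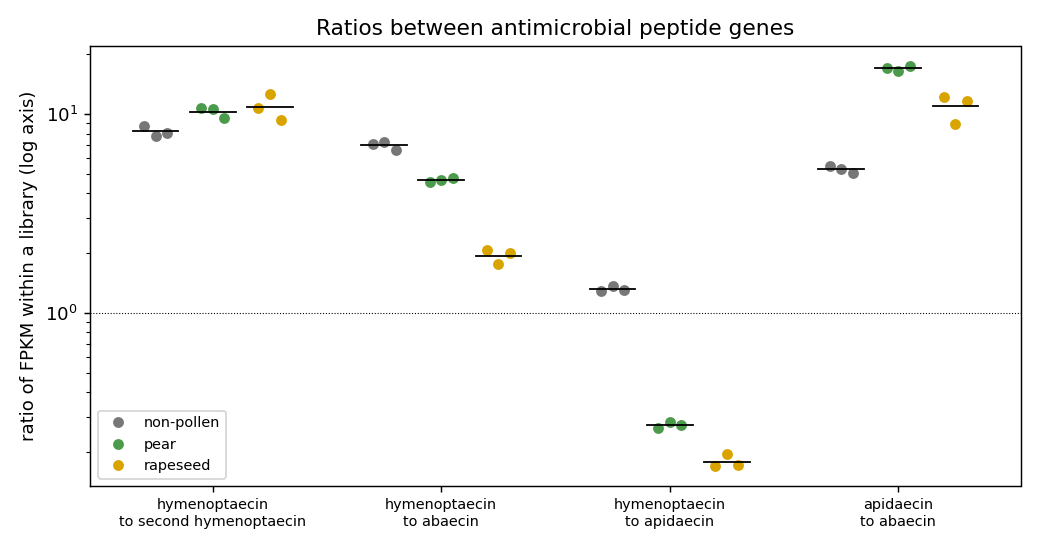
Ratio of the authors' FPKM between pairs of peptide genes within each library (log axis, dotted line at equal levels), with 1 point per library and a bar at the group mean, in non-pollen (grey), pear (green) and rapeseed (yellow) libraries. Hymenoptaecin to apidaecin lies above 1 in non-pollen libraries (mean 1.32) and below it in pear (0.274) and rapeseed (0.18) libraries.

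The makeup of the summed counts shifted in the same way. Apidaecin gave 30.5% ± 0.693 (SD, n = 3) of the counts of the 4 genes in non-pollen, 67.4% ± 0.65 in pear and 73.2% ± 1.81 in rapeseed libraries. Hymenoptaecin gave 59% ± 0.507, 27.1% ± 0.563 and 19.3% ± 1.02. Without TMM scaling, the 4 genes together had 313 to 331 CPM in non-pollen libraries, 487 to 502 in pear and 98.2 to 103 in rapeseed libraries. After TMM scaling the sum was 395 to 428 CPM in non-pollen, 417 to 449 in pear and 88.5 to 92.6 in rapeseed libraries. Non-pollen and pear libraries thus overlapped with TMM scaling and did not without it, and rapeseed libraries were lowest on both measures.

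The other effectors in the table, proteins that act on the bacterium itself, were a pair of defensins and lysozyme. Defensin-1, LOC107993803, a cysteine-rich peptide that honey bees also secrete into royal jelly, was measured at 1520, 1430 and 1420 CPM in non-pollen, 124, 128 and 138 in pear, and 100, 104 and 104 in rapeseed libraries. It fell steeply in both pollen carrier groups against non-pollen bees, by 3.48 (log2 scale, SE 0.0427, adjusted p = 7.48e-24) in pear and by 3.82 (SE 0.0434, adjusted p = 2.24e-24) in rapeseed bees. Between rapeseed and pear bees the defensin-1 value was -0.34 (SE 0.0404, adjusted p = 2.93e-06), so that most of its range lay between non-pollen bees and both carrier groups. The summed counts of the head gland list named above fell in the same direction. Of its 23 tested genes, 7 were called higher and 13 lower in pear, and 8 higher and 11 lower in rapeseed bees. The shares over all genes tested were 28.5% higher and 27.2% lower in pear, and 29.3% and 30.0% in rapeseed bees. The part of this list in the defensin-1 values was not tested.

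Defensin-2, LOC108000415, was low throughout, at 2.04, 1.79 and 2.27 CPM in non-pollen, 2.83, 1.77 and 3.08 in pear, and 1.08, 1.31 and 1.09 in rapeseed libraries. Rapeseed libraries were the lowest, and pear and non-pollen libraries overlapped. It fell by 1.14 (log2 scale, SE 0.262, adjusted p = 0.00481) from pear to rapeseed bees. Against non-pollen bees the defensin-2 value was 0.33 in pear (SE 0.256, adjusted p = 0.282) and -0.81 in rapeseed bees (SE 0.267, adjusted p = 0.0129). With library totals only the pear value was called, at 0.87 (adjusted p = 0.00437), and the rapeseed value was -0.32 (adjusted p = 0.272). With limma on FPKM plus 1 they were 0.63 (adjusted p = 0.0022) and -0.2 (adjusted p = 0.228).

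Lysozyme c-1, LOC114577830, which cuts the bacterial cell wall, went the other way. It was measured at 78, 82.5 and 85 CPM in non-pollen, 112, 123 and 132 in pear, and 134, 142 and 137 in rapeseed libraries. Lysozyme rose by 0.58 on the log2 scale in pear (SE 0.0524, adjusted p = 5.39e-09) and by 0.75 in rapeseed bees (SE 0.0522, adjusted p = 6.72e-11) against non-pollen bees. The step from pear to rapeseed was 0.17 (adjusted p = 0.0318) and was lost without pear replicate 1 (0.11, adjusted p = 0.179), pear replicate 2 or rapeseed replicate 2 or 3, with library totals only (0.13, adjusted p = 0.089) and with limma on FPKM plus 1 (0.13, adjusted p = 0.136).

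**Figure D3:**
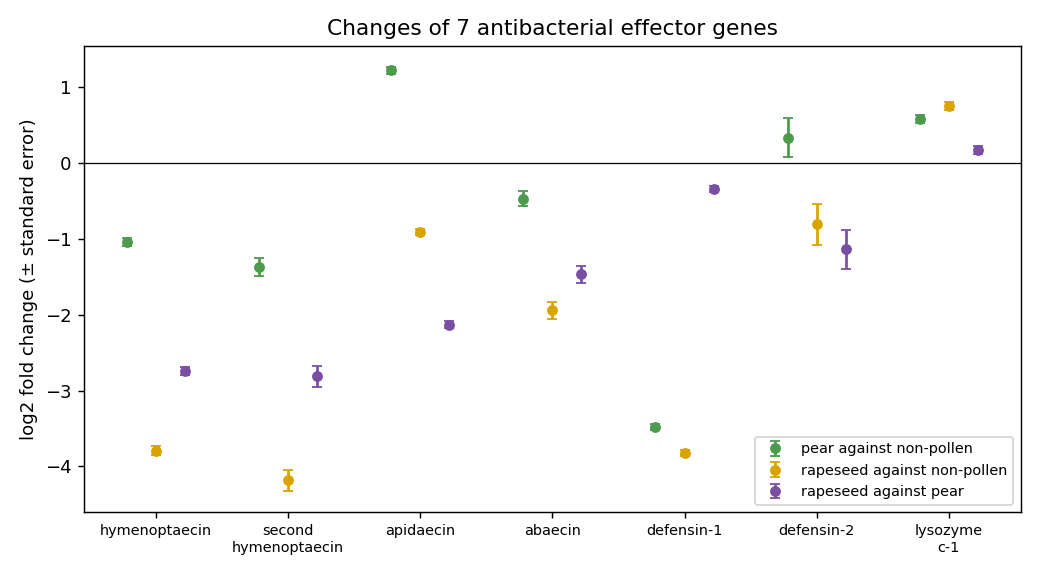
Log2 fold change with its standard error for the 4 peptide genes, both defensins and lysozyme in pear against non-pollen (green), rapeseed against non-pollen (yellow) and rapeseed against pear (purple). Apidaecin has opposite signs in pear (1.22) and rapeseed (-0.91) against non-pollen bees, defensin-1 is low in both (-3.48 and -3.82), and the 4 peptide genes were picked on the purple contrast.

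The other immune lists hold genes that sense bacteria, carry immune signals or make melanin. Of 33 tested genes in the recognition, Imd, Toll, JAK/STAT and melanization lists, 13 were called higher and 7 lower in pear bees, 13 higher and 9 lower in rapeseed bees, and 3 higher and 5 lower in rapeseed against pear. Of all genes tested, 28.5% were called higher and 27.2% lower in pear, and 29.3% higher and 30.0% lower in rapeseed bees, against non-pollen bees. In rapeseed against pear, 7.94% were called higher and 4.96% lower. The median log2 fold change of the 33 genes was 0.06, 0.03 and -0.04 in this order, beside -0.01, -0.02 and -0.01 over all genes. With the non-member effectors included, 11 genes were called between rapeseed and pear. That count was 6 without pear replicate 1 and 7 without rapeseed replicate 1, 2 or 3.

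Of 8 recognition genes, 6 were called higher in pear and 6 in rapeseed bees against non-pollen bees. Over all genes tested, the shares called higher were 28.5% and 29.3%. The list holds 3 peptidoglycan recognition proteins, which bind bacterial cell wall and in *Drosophila* include both sensors and enzymes that damp the Imd signal. LOC108004045 (peptidoglycan recognition protein-like) rose by 1.61 on the log2 scale in pear bees (SE 0.231, adjusted p = 4.62e-06) and by 0.85 in rapeseed bees (SE 0.233, adjusted p = 0.00381). LOC108004046 (SC2-like) rose by 1.16 in pear (SE 0.0719, adjusted p = 1.14e-11) and by 0.54 in rapeseed bees (SE 0.072, adjusted p = 1.73e-06). Both of these were lower in rapeseed than in pear bees, LOC108004046 with -0.63 (adjusted p = 1.15e-06) and LOC108004045 with -0.77 (adjusted p = 0.0219), a call that was lost without pear replicate 1 (-0.65, adjusted p = 0.111), pear replicate 3 or rapeseed replicate 1 or 3. Their order, pear above rapeseed above non-pollen, was not that of any of the 4 peptide genes. The third, LOC107999442 (LC-like), was at 0.03 in pear (adjusted p = 0.635) and 0.18 in rapeseed bees (adjusted p = 0.00367) against non-pollen. With library totals only, where the median of all genes was 0.53, its pear value was called, at 0.56 (adjusted p = 4.33e-09). Between rapeseed and pear it was at 0.15 (adjusted p = 0.0468), a call lost under 9 of 17 alternatives. Among these were the fits without pear replicate 1 (0.11, adjusted p = 0.196) or 3 and without any 1 of the rapeseed replicates. Beta-1,3-glucan-binding protein 1 (LOC107993481), a sensor of fungal and bacterial wall sugars, rose between each pair of groups, by 0.25 in pear and 0.53 in rapeseed bees against non-pollen and by 0.28 from pear to rapeseed (adjusted p = 1.15e-06).

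In rapeseed against pear, 7.94% of all genes tested were called higher and 4.96% lower. In the Imd list, 1 of 10 genes was called in that contrast. It was LOC108001133, NF-kappa-B essential modulator, a subunit of the kinase that activates the Imd factor, with -0.17 (SE 0.049, adjusted p = 0.0249), a call lost without pear replicate 1 (-0.12, adjusted p = 0.157), pear replicate 2 or rapeseed replicate 1 or 2. LOC107995490, described as NF-kappa-B p100 subunit, the family of the Imd factor Relish, was at -0.34 in pear and -0.44 in rapeseed bees, but at 0.2 and 0.05 with library totals only. Between rapeseed and pear it was at -0.11 (SE 0.043, adjusted p = 0.125). Akirin-2 (LOC107999532), a nuclear partner of that factor in *Drosophila*, was at -0.27 against non-pollen in both groups and turned to 0.26 and 0.23 with library totals only. Caspase-8 (LOC107999646), the counterpart of the *Drosophila* protease Dredd, was at -0.56 in pear and -0.67 in rapeseed bees. Both calls were lost with library totals only (-0.03 and -0.18). On that scale the median of all genes moved to 0.53 in pear and 0.47 in rapeseed bees. LOC107995490, akirin-2 and caspase-8 lay below it in both.

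In the Toll list, 11 of 14 genes were tested. Of 2 tested genes for the inhibitor cactus-like, which holds the Toll factor in the cytoplasm, LOC107996104 rose by 0.57 in pear (SE 0.0339, adjusted p = 6.17e-12) and by 0.37 in rapeseed bees (SE 0.0339, adjusted p = 5.39e-09) on the log2 scale. It was lower in rapeseed than in pear bees by 0.2 (log2 fold change -0.2, SE 0.0336, adjusted p = 0.000261). The other, LOC108002391, was called in no comparison after TMM scaling, with 0.03 in pear (adjusted p = 0.68) and -0.07 in rapeseed bees (adjusted p = 0.283) against non-pollen and -0.11 between rapeseed and pear (adjusted p = 0.281). With library totals only, both comparisons of LOC108002391 with non-pollen bees were called higher (0.56 and 0.42). On that scale the median of all genes moved to 0.53 in pear and 0.47 in rapeseed bees. The adaptor Tube (LOC107996597) was at -0.28 and -0.39, and the kinase pelle (LOC108001969) at -0.16 and -0.33, in pear and rapeseed bees, and both turned above 0 with library totals only. The pelle call in pear bees (adjusted p = 0.0454) was also lost with no filter, the CPM filter, only the groups compared, the replicate block (adjusted p = 0.0525) and without non-pollen replicate 2 or 3, pear replicate 2 or 3 or any 1 of the rapeseed replicates. LOC107995379, listed under several descriptions of which protein toll is one, was at -0.09 in pear and -0.29 in rapeseed bees. It also turned above 0 with library totals only. LOC107995659, described as protein toll, went the other way after TMM scaling. It was at 0.41 in pear (SE 0.115, adjusted p = 0.00481) and 0.44 in rapeseed bees (SE 0.114, adjusted p = 0.00261) against non-pollen. Between rapeseed and pear LOC107995659 was at 0.03 (adjusted p = 0.927). Toll-like receptor 13 (LOC107998162) was at 0.32 and 0.36, and at 0.05 between rapeseed and pear (adjusted p = 0.499).

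None of the 3 JAK/STAT genes was called between rapeseed and pear, where 7.94% of all genes tested were called higher and 4.96% lower. Suppressor of cytokine signaling (LOC108000013), a feedback inhibitor of that pathway, rose by 0.92 in pear and by 0.88 in rapeseed bees against non-pollen bees (adjusted p = 2.72e-08 and 4.78e-08). Phenoloxidase 2 (LOC108004136), the enzyme that makes melanin around wounds and microbes, was at -0.72 in pear (adjusted p = 5.46e-06) and -0.77 in rapeseed bees (adjusted p = 1.78e-06). The pear call was lost with library totals only (-0.18, adjusted p = 0.118).

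**Figure D4:**
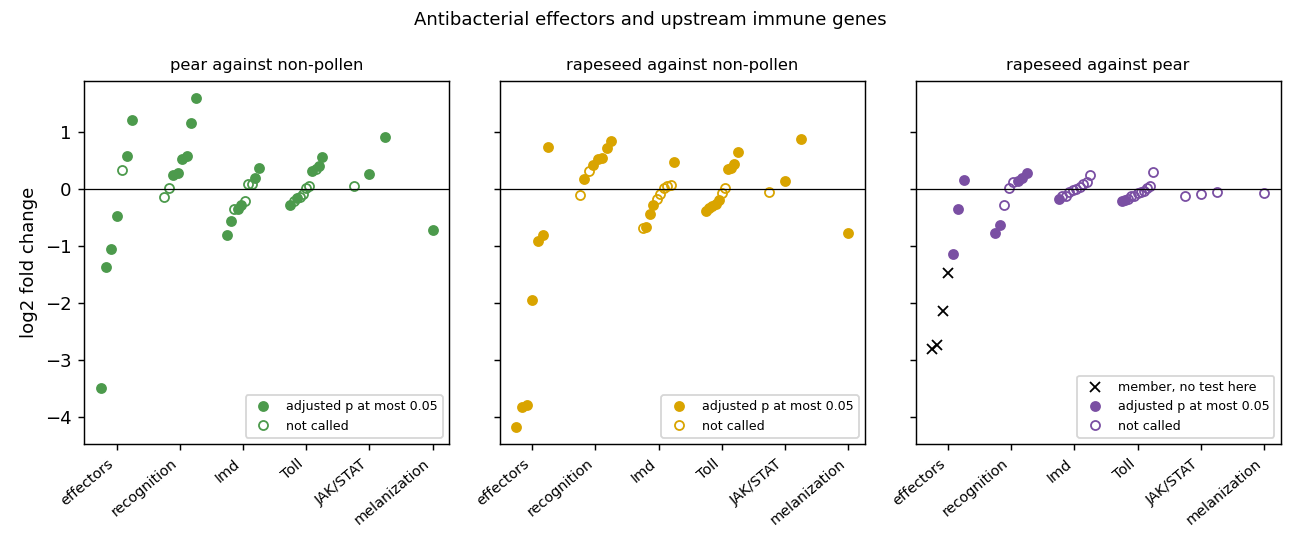
Log2 fold change of each tested gene of 6 immune lists in pear against non-pollen (left), rapeseed against non-pollen (middle) and rapeseed against pear (right), with 1 point per gene, filled where the adjusted p is at most 0.05. The crosses at right are the 4 peptide genes, picked on that contrast and not tested there, and the points of the 5 lists other than effectors lie between -0.8 and 1.61.

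Markers of the cells that usually make these peptides were measured beside them. In bulk tissue, fewer cells of a type and less RNA per cell cannot be told apart. Summed CPM of 9 fat body genes was 1410 to 1550 in non-pollen, 1100 to 1190 in pear and 1110 to 1150 in rapeseed libraries, and summed CPM of 5 blood cell genes was 199 to 206, 134 to 136 and 125 to 144. Both sums overlapped between rapeseed and pear libraries. Within the fat body list, 1 of 7 tested genes was called higher and 2 lower in rapeseed than in pear bees. Vitellogenin (LOC108000069), the yolk precursor, was at 390 CPM in pear and 264 in rapeseed bees, and apolipophorins (LOC107995298), the lipid carrier of the blood, at 623 and 742. None of 4 tested blood cell genes was called in that contrast, and no marker of either list was at 0 in every library. Summed CPM of the head gland list was 7540 to 10600 in pear and 6970 to 7340 in rapeseed libraries, without overlap. Most called genes of the list went against its sum. Of 23 tested, 11 were called higher and 4 lower in rapeseed than in pear bees, beside 7.94% and 4.96% of all genes tested. The part of this list in the difference of the peptide genes between these groups was not tested. Against non-pollen bees the fat body and blood cell sums were lower in each carrier group after TMM scaling. As a share of all counts, the fat body list took a mean of 0.116% in non-pollen, 0.131% in pear and 0.126% in rapeseed libraries, the other direction, and the blood cell list 0.016%, 0.0155% and 0.0149%. Of 7 tested fat body genes, 2 were called higher and 4 lower in pear, and 3 higher and 3 lower in rapeseed bees. Hexamerin-like LOC107995056 was at 200 CPM in non-pollen, 6.23 in pear and 4.07 in rapeseed bees, and apolipophorins at 655, 623 and 742. Of 4 tested blood cell genes, 3 were called lower in pear and 4 in rapeseed bees. Beside these counts, 28.5% of all genes tested were called higher and 27.2% lower in pear bees. In rapeseed bees 29.3% were called higher and 30.0% lower. The part of both lists in the falls of the peptide genes was not tested.

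Across the 9 libraries the profiles of hymenoptaecin, its second gene and abaecin-like ran closely together, with Pearson correlations of log2 CPM from 0.983 to 0.996. Apidaecin had correlations of 0.59 to 0.66 with them. The 9 points fall into 3 groups, so these figures describe the order of the groups. Among 6815 described genes whose mean FPKM reached 5 in some group, 58 had a correlation above 0.9 with the mean profile of the 4 genes. The 10 closest had correlations of 0.958 to 0.989, with LOC107992621 (slit homolog 3-like, named for an axon guidance protein) first. Their mean CPM in pear libraries was 0.719 to 1.19 of that in non-pollen libraries, with 0.979 for LOC107992621. For the peptide genes this ratio was 0.387 to 0.722, but 2.33 for apidaecin. From pear to rapeseed, most of the 10 were less steep than the peptide genes. Their mean CPM in rapeseed libraries was between 0.297 and 0.846 of that in pear libraries. The steepest were LOC107997528 (Niemann-Pick C1-like, of a family that moves sterols), at 21.9, 26 and 7.71 CPM in non-pollen, pear and rapeseed bees, and the uncharacterized LOC108004313, at 89.1, 69.2 and 27.5.

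Esterase E4-like genes, carboxylesterases of the family that breaks down insecticides in aphids, appeared 2 times among the 10. LOC108003111 was at 460 CPM ± 5.44 (SD, n = 3) in non-pollen, 355 ± 17.5 in pear and 185 ± 4.53 in rapeseed bees. LOC108003932, described as a partial sequence, was at 227 ± 6.08, 163 ± 6.55 and 89 ± 1.13. Cytochrome P450 305a1 (LOC107999234), of a family of oxidases, was at 122, 106 and 75.6. The 5 most opposite genes had correlations of -0.993 to -0.987. Among them, 2 were described as lethal(2)essential for life-like, small heat shock proteins, with LOC107996022 at 493 CPM ± 17.2 in non-pollen, 488 ± 24.2 in pear and 1210 ± 12.1 in rapeseed bees. A heat shock 70 kDa cognate (LOC107996313) was at 1540 ± 53.1, 1710 ± 73.3 and 3180 ± 33.1. These genes were ranked on the libraries that picked the peptide genes, so their likeness is a description.

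**Figure D5:**
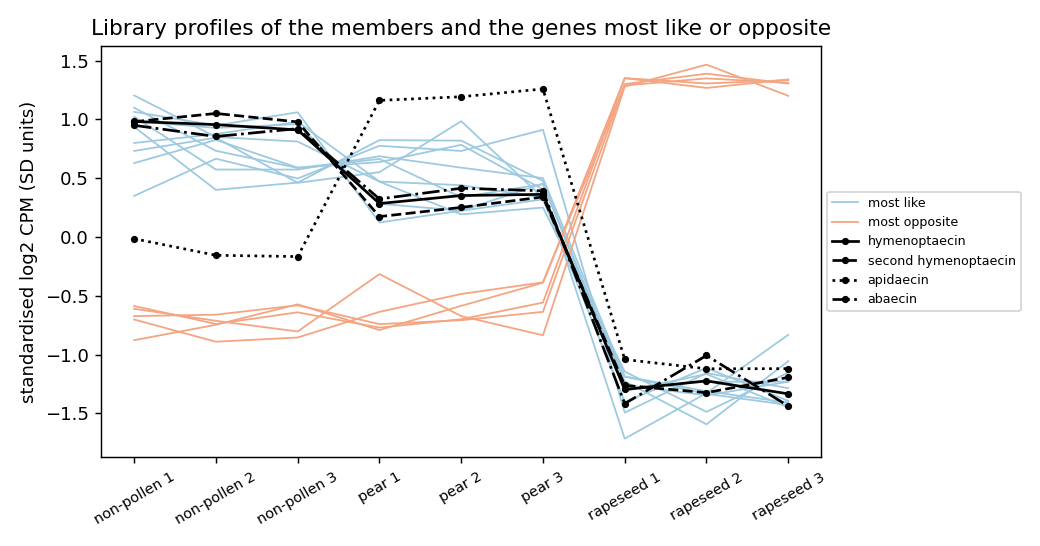
Log2 CPM standardised to its own mean and SD over 9 libraries for the 4 peptide genes (black), the 10 genes most like their mean profile (blue) and the 5 most opposite (orange). All black and blue lines are lowest in the 3 rapeseed libraries, where the orange lines are highest, and the dotted apidaecin line alone is highest in pear libraries among the black lines.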

How the data were processed

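The authors deposited whole-number counts and FPKM per gene for 9 proboscis libraries in one table. Poly(A) RNA was made into libraries that mark strand. Per the submitters' processing notes, HISAT2 2.2.1, StringTie 2.1.6, edgeR, DESeq2 and cutadapt 1.9 were used, in roles that are not stated. The build, and whether counting used strand, are not given in the sources consulted, and coordinates are those of the table. The published paper describes another experiment and was used for style only.

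Genes with FPKM of at least 1 in at least 3 libraries were tested (9259), on the deposited counts, with edgeR 4.0.16 (R 4.3.3): TMM scaling, the 3 groups in 1 quasi-likelihood fit, Benjamini-Hochberg adjustment over all genes tested and a threshold of 0.05. TMM factors were 0.773 to 0.8 in non-pollen libraries and 1.11 to 1.17 in the others, and the common biological coefficient of variation was 7.92%. FPKM was used for levels between genes and, with 1 added, on the log2 scale in limma 3.58.1 as an alternative. DESeq2 1.42.0 was another. Between any 2 replicates of a group the chi-square per degree of freedom was 6.03 to 14.2, so each library counted as 1 sample. The fit was tested on simulated counts.

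The members and the lists were chosen with earlier results of these data known. Named genes were the 4 members, the other effectors, up to 5 genes of each other immune list with the smallest adjusted p, the nearest gene on each side of a member, and the 10 genes most like the mean standardised log2 CPM of the members and the 5 most opposite. LOC107999442 and LOC108002391 were added after their values were seen. So was LOC107995659, which is not among the named genes counted under the alternatives. Lists were matched on descriptions. The neighbours not tested carry no value, and RefSeq names (AcerK_1.0) were found for 10654 identifiers, which include all but 2 of the members. Protein and promoter sequences were not used here.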

Additional observations from a re-analysis of the deposited data

Results flagged for a closer look

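Apidaecin (LOC108000468) moved in opposite directions in the 2 pollen carrier groups. Every pear library lay above every non-pollen library (log2 fold change 1.22) and every rapeseed library below (-0.91), a difference of -2.13 between rapeseed and pear. The difference was not tested, because the gene was picked on that contrast.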

How the results depend on the processing

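Of 136 values of the peptide genes against non-pollen bees under 17 alternatives, 134 kept direction and call. The 68 values between rapeseed and pear, which carry no test, all stayed below 0, and 66 moved by less than the spread between replicates. Abaecin-like in pear against non-pollen turned to 0.06 with library totals only and 0.07 with limma on FPKM plus 1; in rapeseed against pear the second hymenoptaecin gene was at -2.43 with limma and abaecin-like at -1.6 to -1.4 with a library left out. These 2 scalings moved the median log2 fold change of all genes to 0.53 and 0.47 in pear and to 0.47 and 0.42 in rapeseed against non-pollen. Calls rose from 5155 to 7566 and 7621 in pear and from 5489 to 7207 and 7270 in rapeseed against non-pollen, and the share of higher calls went from 51.2% to 91.8% and 92% in pear, from 49.4% to 90% and 90.3% in rapeseed, and from 61.6% to 40% and 42.5% in rapeseed against pear. With library totals and limma, in this order, these values turned above 0 in pear against non-pollen: LOC107995490 to 0.2 and 0.2, LOC107999532 to 0.26 and 0.26, LOC107996597 to 0.25 and 0.26, LOC108001969 to 0.37 and 0.36, and LOC107995379 to 0.44 and 0.33. In rapeseed against non-pollen, LOC107995490 turned to 0.05 and 0.06, LOC107999532 to 0.23 and 0.23, LOC107996597 to 0.1 and 0.11, LOC108001969 to 0.16 and 0.16, LOC107995379 to 0.21 and 0.15, LOC108002391 to 0.42 and 0.41, and LOC107997913 (hopscotch, the JAK kinase) from -0.04 to 0.45 and 0.44. Of 1309 values of other named genes, 1214 kept direction and call, 55 lost a call, 16 gained one and 24 turned.

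With a library left out, genes called ran from 4634 to 5070 in pear against non-pollen, 4984 to 5523 in rapeseed against non-pollen and 829 to 1373 in rapeseed against pear. Calls among the immune genes other than the members, 22, 25 and 11, ran from 20 to 22, 22 to 25 and 6 to 11. They were 32, 30 and 12 with library totals only and 32, 29 and 8 with limma on FPKM plus 1. Replicate numbers did not pair the libraries: correlations of same-numbered libraries were -0.115 to 0.049 and only 1 library of 9 was closest to a library of its own number. Fits with a replicate block called 5094, 5408 and 1098 genes. The second hymenoptaecin gene in rapeseed libraries and defensin-2 rest on few counts, which limits their precision.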
